A study of Homo sapiens with 4 samples.

Results

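The question addressed here was how far 2 knock-downs of human embryonal carcinoma cells differ from each other. OCT4 (the product of POU5F1) and SOX2 were silenced separately in NCCIT, an established line of pluripotent stem cells of a teratocarcinoma, and the arrays of the OCT4 knock-down (OCT4 kd) were set directly against those of the SOX2 knock-down (SOX2 kd). The comparison was made of 3 arrays against 3, 6 of the 12 arrays of the series, and no mock array entered the contrast. The other 6 arrays, 3 of mock-treated cells and 3 of a NANOG knock-down (NANOG kd), served as levels to read the values against. The 3 arrays of a group came from biological replicates, and whether these were separate transfections was not given in the sources used here, so that p-values measure the spread between these cultures.

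All 4 groups were NCCIT cells seeded at the same density in serum-containing medium. The mock group received the transfection reagent without RNA. The knock-down groups received the reagent with esiRNA, enzymatically produced short double-stranded RNAs derived from one stretch of the OCT4, SOX2 or NANOG message. Cells were harvested at day 2.5 per the labels, while the study's methods speak of day 2, and 300 ng of total RNA was amplified and hybridised to one-colour Illumina BeadChips with 47293 probes. Limits of the model are that one aneuploid tumour line was used, that 1 pool was used against OCT4 and 1 against SOX2, and that the RNA of a whole culture was measured, including any cells that took up no esiRNA.

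OCT4 is a POU-domain and SOX2 an HMG-box transcription factor. Both are known to bind DNA next to each other on composite sites of many genes active in pluripotent cells, among them POU5F1, SOX2 and NANOG themselves, which places each factor upstream of the other. Loss of either one ends self-renewal in pluripotent cells. The stretches of message against which the 2 pools were directed are given by the primers with which the study amplified the esiRNA templates. They are shown because they define the 2 perturbations compared here (5′ to 3′, lower case throughout, promoter tails left out).
OCT4 forward: gagaaggagaagctggagca
OCT4 reverse: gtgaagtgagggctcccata
SOX2 forward: catcacccacagcaaatgac
SOX2 reverse: ggaaagttgggatcgaacaa

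Levels are given as log2 of the background-corrected, quantile-normalised signal, and a difference is the mean OCT4 kd level minus the mean SOX2 kd level on that scale. A probe was tested if its detection score was at least 0.99 on all 3 arrays of at least one of the 2 groups, which 11986 probes reached. Of these, 11038 passed in both groups, 851 through the OCT4 kd arrays alone and 97 through the SOX2 kd arrays alone. The OCT4 kd arrays were slightly brighter: the median deposited signal lay between 115.9 and 124.2 in OCT4 kd and between 109.1 and 115.2 in SOX2 kd, with 26.7 to 27.2% and 25.0 to 25.7% of probes detected, so that the groups did not overlap in either measure. The part of this offset in the results was not tested. The dimmest detected probes of the mock arrays lay at 5.39 to 5.53 after normalisation. Mock means below that range lie at or near background, so distances from them are not exact. Gene names were taken from the study's table of genes that differed from mock, so a name is known for 2774 of the tested probes, mainly those listed for the OCT4 knock-down. Their choice is therefore not independent of the OCT4 kd arrays.

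The target of the first pool was checked on the arrays. The POU5F1 signal was 610.5, 546.0 and 536.2 on the mock arrays and 151.5, 133.0 and 118.5 on the OCT4 kd arrays, where it was detected on 1 of 3 arrays. It was 127.0, 118.0 and 118.7 on the SOX2 kd arrays, where it was not detected at all. Relative to mock, the normalised POU5F1 level was at least 16.2-fold lower in OCT4 kd and at least 15.2-fold lower in SOX2 kd, both against the floor set by the dimmest detected probes of each array. Thus the OCT4 message was close to or below the detection limit in both knock-downs, and since the probe was not tested between them no difference can be given. Fewer cells expressing a gene and less RNA per cell cannot be told apart in these samples.

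NANOG, another factor of this circuit, gave a signal of 342.6, 380.7 and 314.2 in mock. It was 130.8, 124.2 and 127.6 in OCT4 kd and 126.5, 118.7 and 105.7 in SOX2 kd, with no array of either group passing detection. The level was at least 9.34-fold below mock in OCT4 kd and at least 8.52-fold below mock in SOX2 kd, against the same floor. In the NANOG knock-down itself the signal was 184.2, 165.6 and 162.1 and was detected on all 3 arrays. No probe on the array carried the name SOX2 in the gene table, so the second pool's target, and with it the label of the SOX2 kd arrays, could not be checked on the arrays, and other assays of the study were not used here.

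The 2 knock-downs were close to each other over the whole array. Over the 9899 probes detected on all 12 arrays, Pearson's r between an OCT4 kd and a SOX2 kd array was 0.99 to 0.996. It was 0.995 to 0.997 among the OCT4 kd arrays and 0.993 to 0.996 among the SOX2 kd arrays, so that the range between the groups overlapped the range within them. Against mock, r was 0.939 to 0.946 for OCT4 kd and 0.939 to 0.944 for SOX2 kd. These correlations run over probes of the same arrays and describe likeness only.

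**Figure D1:**
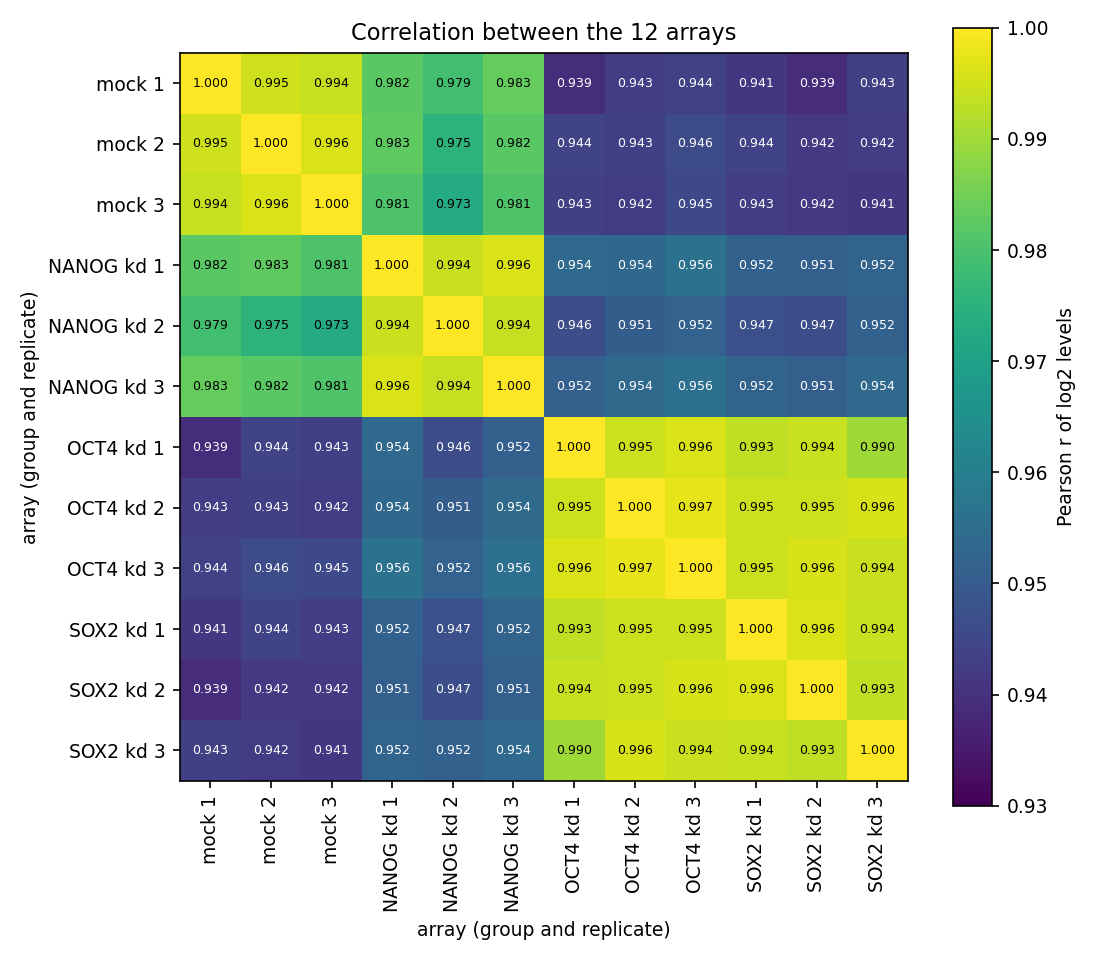
Pearson correlation of log2 levels for each pair of the 12 arrays, over the 9899 probes detected on all of them. Both axes list the arrays by group and replicate, and the colour gives r. The OCT4 kd and SOX2 kd arrays form one block at 0.99 or above, while their values against mock stay at or below 0.946.

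Of the 11986 probes tested, 2 (0.0167%) were called at an adjusted p below 0.05 (limma, Benjamini-Hochberg), both higher in OCT4 kd. None was called lower (0%), with 522 lower probes (4.36%) and 795 higher probes (6.63%) at an unadjusted p below 0.05, together 11.0% of those tested. With scaling of the arrays to a common median in place of quantile normalisation, 2 probes were called higher and 3 lower. The count also moved with an offset of 50 in the background correction (14 higher, 1 lower) and with 2 settings added after seeing the data, an intensity trend in the prior variance (35 and 1) and array weights (205 and 74). Both called probes had passed the filter through the OCT4 kd arrays alone, and among the 11038 probes detected on all 6 arrays none was called, the smallest adjusted p being 0.105. Leaving out one array at a time gave 1 to 3 calls, except that 17 probes were called, all higher in OCT4 kd, without SOX2 kd replicate 3.

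A p that misses the threshold does not show that 2 groups are alike, and the intervals were therefore counted as well. The 95% interval of the difference lay entirely within 1.5-fold in either direction for 11280 probes (94.1%). The median difference was -0.01, its standard deviation over probes was 0.16, and the median standard error of a single difference was 0.093. In a fit of all 12 arrays, which shares one estimate of the spread, 0 of 11986 probes were called between OCT4 kd and SOX2 kd (smallest adjusted p 0.0545, limma) and 1178 had an unadjusted p below 0.05. In the same fit 6971 of 12152 probes (57.4%) were called between OCT4 kd and mock, 6720 of 11587 (58.0%) between SOX2 kd and mock, and 3780 of 11321 (33.4%) between NANOG kd and mock. Against NANOG kd, 6414 of 12207 probes were called for OCT4 kd (52.5%) and 6273 of 11750 for SOX2 kd (53.4%). The standard deviation of the differences over probes was 0.73 for OCT4 kd against mock and 0.75 for SOX2 kd against mock.

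**Figure D2:**
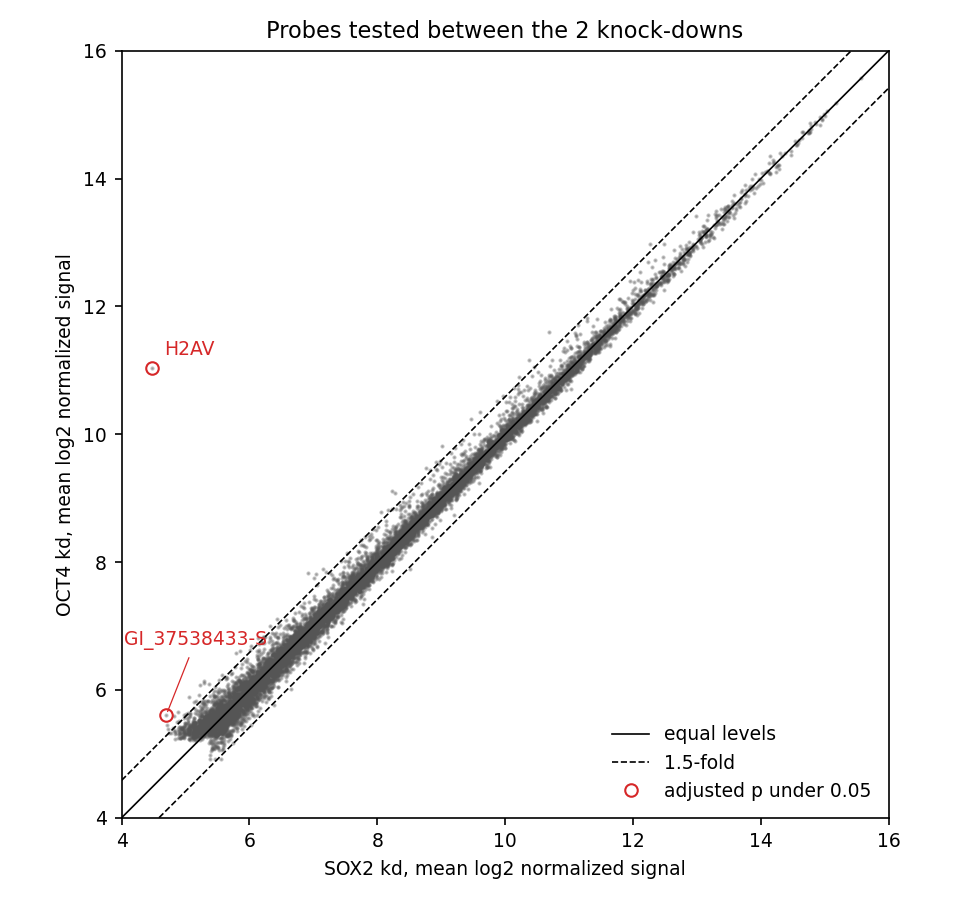
Mean log2 level in SOX2 kd (x axis) and in OCT4 kd (y axis) for the 11986 probes tested, 3 arrays a group. The solid line marks equal levels, the dashed lines a 1.5-fold difference, and red circles the 2 probes called. Nearly all points follow the line of equal levels, and H2AV, at 4.47 and 11.04, lies far above it.

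The one large difference concerned a probe for H2AV, now named H2AZ2, which encodes a histone variant of the H2A.Z type. Its deposited signal was 2883.1, 2710.3 and 2766.4 on the OCT4 kd arrays and 112.9, 104.1 and 91.5 on the SOX2 kd arrays, where it was not detected. The groups did not overlap. The normalised level was at least 52.5-fold higher in OCT4 kd (measured means 11.04 ± 0.09 and 4.47 ± 0.13, SD, n = 3 arrays, difference 6.57, limma adjusted p = 1.29e-09). No other tested probe differed by more than 1 on the log2 scale.

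The remaining groups did not behave evenly for this probe. Its signal was 78.8, 936.6 and 86.6 on the 3 mock arrays, so replicate 2 was detected and replicates 1 and 3 were not. It was 2186.4, 1857.5 and 1428.5 on the NANOG kd arrays, all detected. The spread between beads that the files give was 133.3 on mock replicate 2 and 5.1 and 7.8 on the other mock arrays, and it was 70.2, 242.0 and 257.9 on the NANOG kd arrays. The normalised mock levels spanned 5.69 on the log2 scale, the widest range of any probe within any of the 4 groups, whose median ranges were 0.18 to 0.19. In the fit of 12 arrays, in which this spread enters, the adjusted p of H2AV was 0.0545 and the call was lost.

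A second probe of the same sequence record did not show the difference. Its signal was 5372.9, 5025.8 and 4863.3 in OCT4 kd and 4441.0, 3998.1 and 3749.3 in SOX2 kd, and it was detected on all 12 arrays. After normalisation the difference was -0.07 (95% interval -0.23 to 0.10, limma adjusted p = 0.834). The mock level of 11.78 and the NANOG kd level of 11.89 lay close to the levels of 11.97 in OCT4 kd and 12.03 in SOX2 kd. Whether the first probe reads the H2AV message was not tested.

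The other called probe, GI_37538433-S, has no name in the gene table. Its signal was dim, with 168.7, 156.6 and 149.7 in OCT4 kd and 120.6, 112.0 and 108.7 in SOX2 kd, and it was detected on the OCT4 kd arrays only of these 6. The normalised level was at least 1.21-fold higher in OCT4 kd (measured difference 0.90, limma adjusted p = 0.00828). It was also detected on all 3 NANOG kd arrays (154.6, 138.6 and 124.0) and on no mock array (111.4, 103.4 and 92.3). The call was lost in 4 of the 6 fits that leave out one array, with adjusted p of 0.0613 to 0.0994 without OCT4 kd replicate 1, 2 or 3 or SOX2 kd replicate 2.

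**Figure D3:**
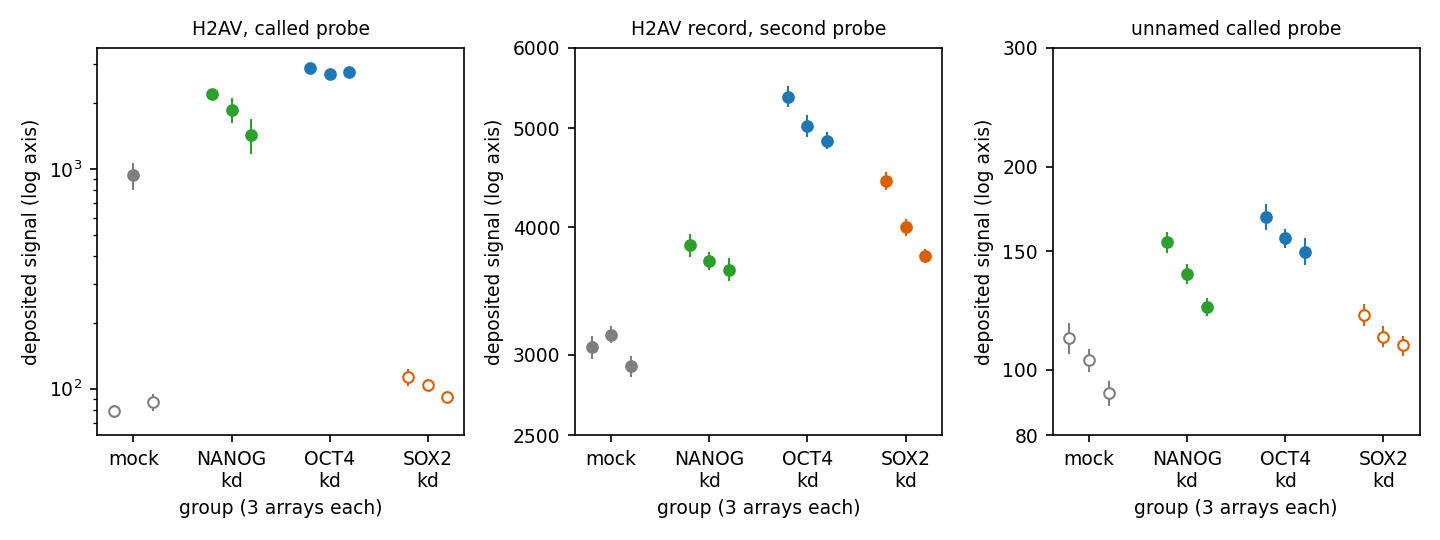
Deposited signal on a log axis for the called H2AV probe, the second probe of that record and the unnamed called probe, by group, with 1 point per array. Bars are the spread between beads as deposited, filled points were detected and open points were not. Only the first panel separates OCT4 kd from SOX2 kd by more than an order of magnitude, and there the mock arrays split as well.

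Below the threshold, larger differences lay mainly on one side: 137 probes were more than 0.5 (log2) higher in OCT4 kd and 9 more than 0.5 lower. Of the 137, 45 had passed the filter through the OCT4 kd arrays alone, where they were high, and of the 9, 5 through the SOX2 kd arrays alone. Among probes detected on all 6 arrays the split was 92 and 4. It depended on the scaling, since median scaling gave 85 higher and 114 lower. Among the 137 probes, of which 29 had a name, the median level was 6.98 in OCT4 kd, 6.33 in SOX2 kd and 6.58 in mock. The SOX2 kd level was within 0.5 of mock for 103 of them, the OCT4 kd level for 69. These probes were picked by their difference, and their levels are a description.

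Among the named probes with the smallest unadjusted p, those higher in OCT4 kd than in SOX2 kd, apart from H2AV, missed the threshold with adjusted p of 0.0931 to 0.104 (limma). UTF1, a chromatin-associated transcription factor of undifferentiated cells, was at 7.79, 7.86 and 7.87 in OCT4 kd and at 7.12, 7.10 and 7.39 in SOX2 kd, without overlap. Its difference was 0.64 (95% interval 0.42 to 0.85, adjusted p = 0.0931), against a mean of 11.76 in mock and 10.83 in NANOG kd. UTF1 was thus low in both knock-downs and somewhat less low in OCT4 kd. Without SOX2 kd replicate 3 it was called (difference 0.73, adjusted p = 0.0423), while it was not called on leaving out any other single array.

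Others of these genes showed different levels in mock. LHX5, a LIM homeobox gene of the forebrain, was at 6.98, 6.59 and 6.87 in OCT4 kd and 6.20, 5.98 and 6.23 in SOX2 kd (difference 0.68, 95% interval 0.42 to 0.94, adjusted p = 0.104), with a mock mean of 5.67 ± 0.48 (SD, n = 3). SOM, now GRHL3, a grainyhead-type transcription factor of epithelia, was at 9.54 in OCT4 kd, 8.97 in SOX2 kd and 7.65 in mock. LOC347265, a predicted gene, was at 9.09, 8.27 and 5.68, and without SOX2 kd replicate 3 it was called as well (difference 0.96, adjusted p = 0.0480). For these 3 genes both knock-downs lay above the mock mean, and OCT4 kd lay higher.

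For others of these genes SOX2 kd lay near mock. VHL, the substrate-binding subunit of the ubiquitin ligase that targets hypoxia-inducible factors, was at 9.17 in OCT4 kd, 8.63 in SOX2 kd, 8.44 in mock and 8.44 in NANOG kd. HUMGT198A, now PSMC3IP, a cofactor of meiotic recombination, was at 8.02, 7.44, 7.54 and 7.32 in the same order. It was called without SOX2 kd replicate 3, as UTF1 and LOC347265 were. FLJ11838, now PPCS, an enzyme of coenzyme A synthesis, was at 8.90, 8.35, 8.11 and 8.54.

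The named probes lower in OCT4 kd than in SOX2 kd had smaller differences still, of -0.36 to -0.52 with adjusted p of 0.113 to 0.150 (limma). EGR1, an immediate early zinc-finger transcription factor, was at 8.78, 8.56 and 8.89 in OCT4 kd and at 9.17, 9.27 and 9.18 in SOX2 kd (difference -0.46, 95% interval -0.68 to -0.24, adjusted p = 0.127), with a mock mean of 8.90. PDGFB, a growth factor for mesenchymal cells, was at 6.83 in OCT4 kd and 7.22 in SOX2 kd against 4.43 in mock. FABP3, the fatty acid binding protein of heart and muscle, was at 8.40 and 8.85 against 7.05. PRKWNK4, now WNK4, a kinase that regulates salt transport, was at 6.13 and 6.58 against 4.59. For these 3 genes the level was above the mock mean in both knock-downs. PDGFB and WNK4 were detected on no mock array, so their mock values stand for background and their distance from mock is not exact. For each of the 3, the distance between the knock-downs was smaller than the measured distance of either one from the mock mean.

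Other named probes of this side lay below mock in both knock-downs. TCL1B, a relative of the AKT coactivator TCL1A, was at 6.28 in OCT4 kd and 6.64 in SOX2 kd against 7.98 in mock. MYB, a transcription factor of progenitor cells, was at 5.31 and 5.69 against 6.63. PVRL1, now NECTIN1, an adhesion molecule of epithelia, was at 5.60 and 6.12 against 6.44. In each of these, the 3 OCT4 kd arrays lay below the 3 SOX2 kd arrays, as did 995 of all probes tested (8.30%), while 1022 (8.53%) lay above without overlap.

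Genes of the undifferentiated state lay mostly below mock in both knock-downs, as 25 of 26 tested probes did on the group means, with LEFTY2 as the exception. Of these 26 pluripotency-associated probes, 19 were higher and 7 lower in OCT4 kd than in SOX2 kd, none was called, and the median difference was 0.14 against -0.01 over all tested probes. Among the 23 detected on all 6 arrays, 16 were higher and 7 lower, with a median of 0.09. The rest had passed the filter through the OCT4 kd arrays alone, and all of them were counted as higher. For the whole list the median was 0.04 with median scaling and 0.05 without OCT4 kd replicate 1. The interval lay within 1.5-fold for 23 of 26. At an unadjusted p below 0.05, 4 of 26 were higher (6.63% of all tested probes) and 1 was lower (4.36%). The 4 included ZNF206, which passed the filter through the OCT4 kd arrays alone. As every named probe comes from the table of genes that differed from mock, the distance of these genes from mock is not independent evidence.

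GDF3, a TGF-beta ligand of pluripotent cells, was at 6.38 ± 0.19 in OCT4 kd and 6.05 ± 0.21 in SOX2 kd (SD, n = 3), and at 11.71 in mock and 10.38 in NANOG kd. TDGF1 (CRIPTO), the Nodal co-receptor, was at 10.14 and 9.92 against 12.74 in mock. DPPA4, a chromatin protein of pluripotent cells, was at 6.12 and 5.99 against 8.99. KLF4, one of the reprogramming factors, was at 6.83 and 6.97 against 9.30. The OCT4 kd and SOX2 kd arrays overlapped for GDF3, TDGF1 and DPPA4 and did not for KLF4, whose interval of -0.32 to 0.03 included 0.

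DNMT3B, a de novo DNA methyltransferase, was represented by 2 tested probes, one at 10.63 and 10.47 against 12.97 in mock and one at 5.74 and 5.60 against 7.86. LIN28 (LIN28A), an RNA-binding protein that blocks let-7 maturation, was at 11.24 and 11.33 against 11.88 in mock. SALL4, a zinc-finger factor of pluripotent cells, was at 9.91 and 9.77 against 10.55. PRDM14 and HESX1 were detected on all 3 mock arrays and on no array of either knock-down, so neither was tested. The mock arrays thus carried the markers of undifferentiated cells named in this paragraph. These genes have a name because they differed from mock, so their presence there is not an independent check of the label.

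The Nodal inhibitors EBAF (LEFTY2) and LEFTB (LEFTY1) went apart from the list. LEFTY2 was at 10.60 in OCT4 kd and 10.65 in SOX2 kd, with 5.50 in mock and 7.79 in NANOG kd, and its difference between the knock-downs was -0.05 (95% interval -0.22 to 0.12). LEFTY1 was at 5.47 and 5.82 with 6.43 in mock, and its OCT4 kd arrays lay below the SOX2 kd arrays (difference -0.35, 95% interval -0.59 to -0.12, limma adjusted p = 0.247). The 2 genes are near-identical copies, and probes of such pairs can share signal.

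Mesoderm genes that carried a name were present at similar levels in both knock-downs. The list holds 23 symbols, and members that the table of genes differing from mock did not name could not be read. Of 16 tested probes, 12 were higher and 4 lower in OCT4 kd, none was called, and all 16 intervals lay within 1.5-fold. The median difference was 0.05. At an unadjusted p below 0.05 (limma), 4 of 16 were higher (6.63% of all tested probes) and 1 was lower (4.36%). The arrays of the 2 groups did not overlap for 5 higher probes (8.53% of all) and 1 lower one (8.30%). HAND1, a bHLH factor of heart and extraembryonic mesoderm, was at 12.39, 12.38 and 12.36 in OCT4 kd and 12.26, 12.06 and 12.08 in SOX2 kd (difference 0.24, 95% interval 0.06 to 0.43, adjusted p = 0.299, limma). Its mean was 9.17 in mock and 11.05 in NANOG kd.

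ISL1, a LIM homeobox gene of cardiac progenitors, was at 8.33, 8.34 and 8.38 in OCT4 kd and 8.05, 8.02 and 7.92 in SOX2 kd (difference 0.35, 95% interval 0.19 to 0.52, adjusted p = 0.128, limma). In mock it was at 5.70 and in NANOG kd at 5.41. BMP4, a morphogen of posterior mesoderm, was at 8.34 and 8.12 against 6.19 in mock, without overlap (difference 0.23, 95% interval 0.05 to 0.40). RUNX1, a transcription factor of blood formation, was at 7.15 in both groups against 4.52. MSX1, a homeobox gene of mesenchyme, was at 7.04 and 6.95 against 4.88.

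Genes of smooth and cardiac muscle belonged to the same list. ACTA2, smooth muscle actin, was at 9.17 in OCT4 kd and 9.13 in SOX2 kd against 5.22 in mock. ACTC (ACTC1), cardiac actin, was at 7.89 and 7.84 against 4.62. TAGLN, an actin-binding protein of smooth muscle, was at 11.40 and 11.56 against 6.09. For each of the 3 the arrays of the 2 knock-downs overlapped.

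**Figure D4:**
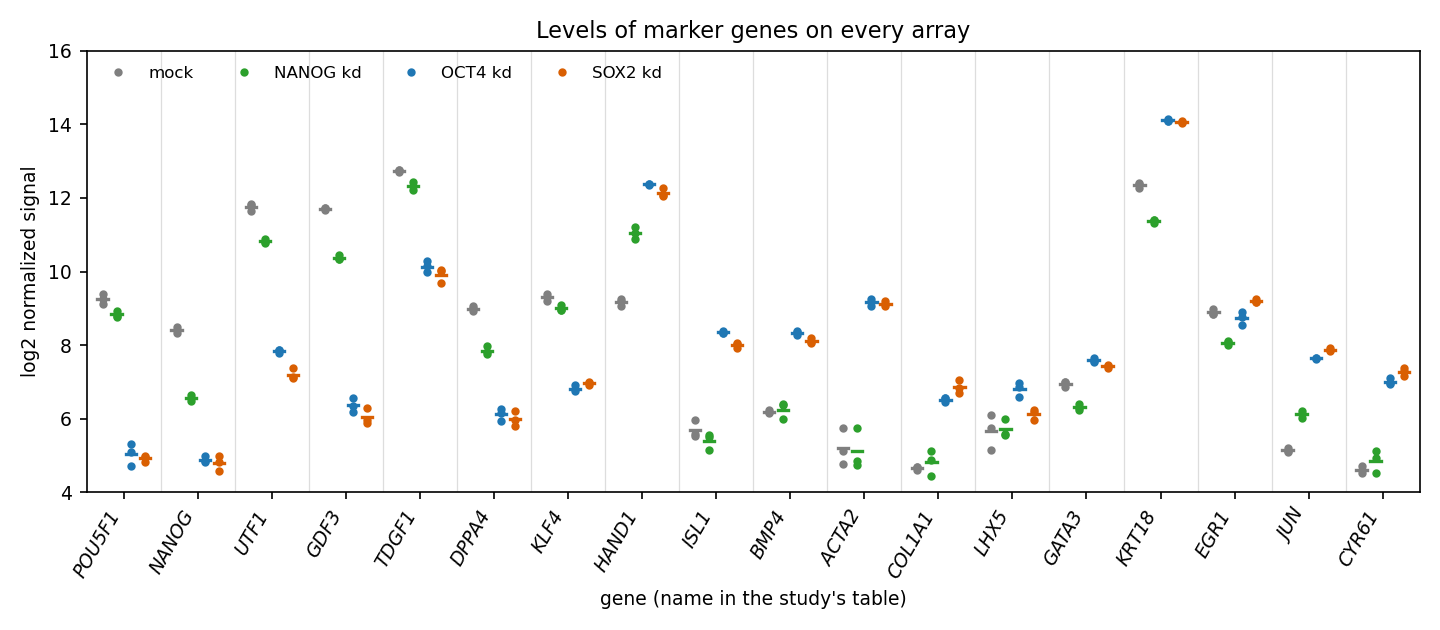
Log2 normalised signal of 18 marker genes on each of the 12 arrays (points) with the group mean (bar), coloured by group. The OCT4 kd and SOX2 kd means lie side by side for most of these genes, and the widest distances are those of LHX5 at 0.68 and UTF1 at 0.64.

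Trophoblast and ectoderm genes were covered more thinly. Of 4 tested trophoblast probes, 2 were higher and 2 lower in OCT4 kd, and none was called. The epithelial keratins KRT8 and KRT18 were at 14.14 and 14.11 in OCT4 kd and at 14.28 and 14.07 in SOX2 kd, against 12.16 and 12.35 in mock. GATA3, a zinc-finger factor of trophoblast and other tissues, was at 7.55, 7.57 and 7.64 in OCT4 kd and 7.46, 7.45 and 7.38 in SOX2 kd (difference 0.16, 95% interval -0.01 to 0.32). TFAP2A, an AP-2 factor of trophoblast and neural crest, was detected on 1 OCT4 kd array and on no SOX2 kd array, and was at 6.10 in mock and 7.67 in NANOG kd.

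Of 9 tested ectoderm probes, 6 were higher and 3 lower in OCT4 kd, none was called, and 7 intervals lay within 1.5-fold. Beside LHX5, the neural progenitor filament gene NES was at 9.93 in OCT4 kd and 10.12 in SOX2 kd against 7.80 in mock. LHX2, a LIM homeobox gene of the forebrain, was at 9.76 and 9.79 against 7.42. On the group means, 7 of the 9 lay above mock in both knock-downs and 2 below. Those 2 were OTX2, at 6.56 and 6.37 against 7.87, and ZIC2, at 8.63 and 8.67 against 9.86. No endoderm gene of the list had a named probe, so endoderm was not analysed here.

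Ligands, receptors and targets of TGF-beta, BMP and Nodal signalling fell on both sides. Of 23 tested probes, 13 were higher and 10 lower in OCT4 kd, with a median difference of 0.01 and none called. The interval lay within 1.5-fold for 19 of 23, a share of 82.6% against 94.1% over all tested probes. The arrays of the 2 groups did not overlap for 4 higher probes (8.53% of all) and 4 lower ones (8.30%). BMP6, a ligand, was at 6.69 in OCT4 kd and 7.06 in SOX2 kd against 5.56 in mock (difference -0.37, adjusted p = 0.192, limma). CKTSF1B1 (GREM1), a secreted BMP antagonist, was at 9.32 and 9.19 against 4.96 in mock and 7.27 in NANOG kd. MADH3 (SMAD3), a signal transducer, was at 10.59 in both groups. CDKN2B, a cell cycle inhibitor known as a TGF-beta target, was at 8.82 and 8.91 against 4.60.

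Of 9 tested probes of FGF signalling, 4 were higher and 5 lower in OCT4 kd, and all intervals lay within 1.5-fold. DUSP6, a phosphatase induced by ERK activity, was at 7.01 and 6.79 against 7.70 in mock and 5.45 in NANOG kd, and its arrays overlapped. ETV4, a PEA3-type target of FGF signals, was at 6.14 in both groups against 9.62 in mock. FGF19, a ligand, was detected on 2 OCT4 kd arrays and no SOX2 kd array and so was not tested, with 7.82 in mock. FGF2 was detected on no array of either knock-down.

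Of 13 tested probes of Wnt signalling, 7 were higher and 6 lower in OCT4 kd. FZD2, a receptor, was at 9.48 and 9.77 against 6.95 in mock. TCF7L1, a transcriptional repressor of the pathway, was at 9.73 and 9.91 against 10.55. FLJ23091 (WLS), which carries Wnt ligands to the cell surface, was at 11.32 and 11.44 against 5.92. All 13 intervals lay within 1.5-fold.

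The immediate early genes, which respond within minutes to growth factors and stress, all lay on one side, as did the pair of reference genes. All 10 tested probes were lower in OCT4 kd than in SOX2 kd, with a median difference of -0.17 and a range of -0.46 to -0.08, and none was called. Of all 11986 tested probes, 6344 were lower. The 10 probes were read on the same arrays, so their signs are not independent of each other. At an unadjusted p below 0.05 there were 4 of 10 (4.36% of all tested probes were lower at that p), and the OCT4 kd arrays lay below the SOX2 kd arrays without overlap for 6 of 10 (8.30% of all). The sign held for all 10 under each background correction and scaling tried and without any single array, with medians of -0.21 to -0.14. All but one of the intervals, that of EGR1, lay within 1.5-fold.

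JUN, an AP-1 subunit, was at 7.66, 7.67 and 7.61 in OCT4 kd and 7.93, 7.84 and 7.87 in SOX2 kd (difference -0.23, 95% interval -0.40 to -0.07, adjusted p = 0.260, limma), against 5.15 in mock. FOSL2, its partner in AP-1, was at 7.84 and 8.13 against 5.29. CYR61 (CCN1) and CTGF (CCN2), matricellular proteins, were at 7.01 and 12.67 in OCT4 kd and at 7.28 and 12.78 in SOX2 kd, against 4.62 and 9.93 in mock. FOS was at 6.67 and 6.81 against 7.56 in mock, so that not every member lay above mock.

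Genes of extracellular matrix and adhesion leaned the same way. Of 25 tested probes, 8 were higher and 17 lower in OCT4 kd, none was called, and the median difference was -0.09. COL1A1, a fibrillar collagen chain, was at 6.56, 6.45 and 6.56 in OCT4 kd and 6.70, 7.05 and 6.85 in SOX2 kd (difference -0.34, adjusted p = 0.237, limma), against 4.66 in mock. The basement membrane collagens COL4A1 and COL4A2 were at 11.50 and 10.01 in OCT4 kd and 11.72 and 10.20 in SOX2 kd, against 8.43 and 7.47 in mock.

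CDH11, a cadherin of mesenchyme, went the other way, with 8.29, 8.03 and 8.18 in OCT4 kd and 7.82, 7.93 and 7.42 in SOX2 kd (difference 0.44, 95% interval 0.14 to 0.75, adjusted p = 0.251, limma). Its mock mean was 4.33. The split of this list depended on single arrays: it was 4 higher and 21 lower without SOX2 kd replicate 3 and 11 higher and 14 lower without SOX2 kd replicate 2.

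Histone genes had the opposite lean. Of 17 tested probes of the list, in which the H2AV probe was not included, 14 were higher and 3 lower in OCT4 kd, with a median difference of 0.11 and none called. Among the 16 detected on all 6 arrays, 13 were higher and 3 lower, with a median of 0.09. For all 17 the split was 17 higher and 0 lower without SOX2 kd replicate 3 and 10 higher and 7 lower without SOX2 kd replicate 2. HIST1H3F (H3C7) was at 5.37 in OCT4 kd and at 6.49 in mock, and it passed the filter through the OCT4 kd arrays alone. It was not detected on any SOX2 kd array (measured mean 4.97), and its difference was not called (adjusted p = 0.252, limma). Its OCT4 kd level lay close to the detection floor of the SOX2 kd arrays, at 5.325, so no fold is given. HIST1H2AC (H2AC6) was at 9.58 and 9.34 against 10.68. Histone genes of the clusters are close copies of each other, and probes among them can share signal.

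The medians of chromatin regulators and cell cycle genes lay nearer to 0. Of 14 chromatin probes 9 were higher and 5 lower in OCT4 kd, with a median of 0.03. JARID2, a component of a Polycomb repressive complex, was at 9.42 and 9.41 against 11.42 in mock. EZH2, the catalytic subunit of that complex, was at 6.63 and 6.69 against 6.97. Of 9 cell cycle probes 2 were higher and 7 lower, with a median of -0.07. CCND1, the cyclin of early G1 phase, was at 11.34 and 11.48 against 10.08, and CDKN1C, a cyclin-dependent kinase inhibitor, was at 8.91 and 8.99 against 7.32.

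The stress lists were read because double-stranded RNA can induce interferon-stimulated genes. Of 8 tested interferon-stimulated probes, 2 were higher and 6 lower in OCT4 kd, with a median of -0.08, none called and all intervals within 1.5-fold. On the group means, 5 of the 8 lay above mock in both knock-downs and 3 below. G1P2 (ISG15), a ubiquitin-like protein, was at 9.14 and 9.21 against 7.60 in mock and 7.49 in NANOG kd. IFITM1, an interferon-induced transmembrane protein, was at 8.62 and 8.77 against 10.71 in mock and 9.84 in NANOG kd. IFIT1, a sensor of viral RNA, was detected on no array of either knock-down. Of 11 probes of p53 targets and stress response, 5 were higher and 6 lower. DDIT4, an inhibitor of mTOR signalling, was at 8.15 and 8.43 against 9.03, and HMOX1, heme oxygenase, at 9.15 and 9.42 against 9.30. CDKN1A, the p53 target p21, was at 8.90 and 8.93 against 7.25.

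Relatives of the silenced factors were read as a list of their own. All 6 tested probes of the SOX and POU family had intervals within 1.5-fold, with 2 higher and 4 lower in OCT4 kd. SOX9, a factor of cartilage and other lineages, was at 7.79 and 7.83 against 4.92 in mock. SOX11, a factor of neural progenitors, was at 7.51 and 7.56 against 6.69, and SOX8 was at 7.73 and 7.74 against 10.03. SOX3, the closest relative of SOX2 in this list, was at 5.80, 6.08 and 6.03 in OCT4 kd and 6.00, 5.96 and 6.49 in SOX2 kd (difference -0.18, 95% interval -0.51 to 0.14), with a mock mean of 5.03. POU6F1 was at 5.52 and 5.31 against 6.27.

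Of 6 sterol biosynthesis probes, 4 were higher and 2 lower in OCT4 kd. INSIG1, a membrane protein that restrains sterol synthesis, was at 9.46 and 9.31 against 8.81 in mock, and DHCR7, which makes cholesterol from its last precursor, was at 9.97 and 10.10 against 10.66. Of the 12 reference genes listed, only 2 had a named probe. B2M was at 10.89 and 11.02 and PPIA at 9.48 and 9.50, and in mock they were at 9.90 and 10.25. Their names came from the table of genes that differed from mock, so they do not serve as stable controls here. B2M is also a member of the interferon-stimulated list. Differences between the 2 knock-downs of B2M (-0.12, 95% interval -0.33 to 0.08) and PPIA (-0.02, -0.19 to 0.16) lay inside the 1.5-fold limit.

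**Figure D5:**
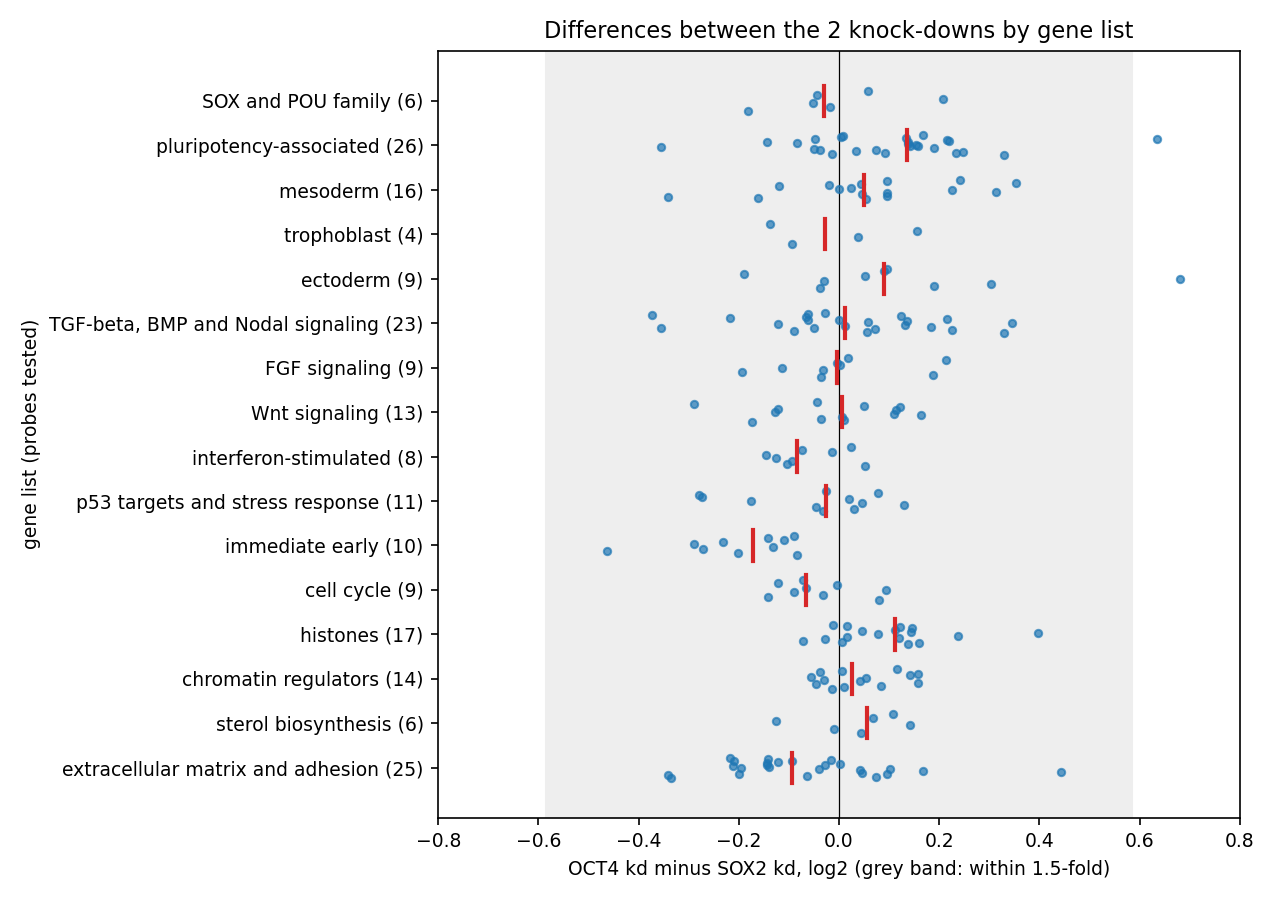
Difference between OCT4 kd and SOX2 kd (x axis, log2) for each tested probe (points) of 16 gene lists (y axis, number of probes in brackets), with the list median as a red bar. The grey band marks differences within 1.5-fold, and the points outside it are UTF1 at 0.64 and LHX5 at 0.68. All 10 immediate early probes lie left of 0.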

How the data were processed

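Expression was measured in NCCIT cells on 12 one-colour Illumina BeadChips, 3 for each of 4 groups. For every array the authors deposited the average signal per probe as an intensity, not yet background-subtracted, the spread between its beads as an intensity, and a detection score between 0 and 1, where 1 means detected. BeadStudio 1.0 is named in the submitters' processing notes. Whether the bead spread is an SD or a standard error is not given in the sources used here. The series table, with the authors' mean intensity per group, was used as an alternative only. No genome build is given in the sources used here and no coordinates are printed.

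The intensities were background-corrected with normexp from the detection score (offset 16), quantile-normalised over all 12 arrays and put on the log2 scale (R 4.3.3, limma 3.58.1). The 4 bacterial control probes were left out. Probes with a detection score of at least 0.99 on all 3 arrays of OCT4 kd or of SOX2 kd entered a limma fit of these 6 arrays (lmFit and eBayes, two-sided, Benjamini-Hochberg over all 11986 probes). The number of arrays limits the precision. Where a probe was detected on no array of a group, folds are bounds, computed against the lowest signal among detected probes of each array or the probe's own, whichever is higher. The scripts were tested on simulated data.

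Names came from the probe column of the study's gene table (2892 of 47293 probes, its ratio and p columns unused). Of these, 872 were updated and 1609 kept through their RefSeq record, and 411 found no match and kept the table's name. Of that table, which was held only in part, the sheets for OCT4 kd were complete and those for SOX2 kd were shortened, so genes that differed from mock only in SOX2 kd are mostly unnamed.

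Genes were named by rule: POU5F1, SOX2 and NANOG, the 10 named probes with the smallest unadjusted p in each direction (fewer than 10 were called), and the 2 members with the largest difference in each of the 19 lists. Other list members are described as well and were chosen after their values were seen, and some members are not reported here. The contrast and the lists were chosen with published results of these data known. Alternatives covered background correction, offset, normalisation, filter, test, arrays in the fit, replicate block and leaving out each array.

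Replicate numbers stand in the file headers only. Deviations from the group means of same-numbered OCT4 kd and SOX2 kd arrays correlated at 0.22, -0.27 and 0.08 over probes, so the numbers were not taken to pair the arrays.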

Additional observations from a re-analysis of the deposited data

Results flagged for a closer look

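The contrast of the 2 knock-downs was tested directly, and 2 probes were called. Both had passed the detection filter through the OCT4 kd arrays alone, where they were high. None was called among the 11038 probes that passed in both groups. In the fit of 12 arrays neither was called (smallest adjusted p 0.0545, limma). The H2AV probe was higher in OCT4 kd by 6.57 (log2), on all 3 arrays against all 3. As it was detected on no SOX2 kd array, the value is not exact, and the level was at least 52.5-fold higher. Of the mock arrays, 1 of 3 gave a signal far above the other 2 (936.6 against 78.8 and 86.6), and the second probe of the record differed between the knock-downs by -0.07.

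GI_37538433-S, an unnamed dim probe, was higher in OCT4 kd by 0.9 (log2), again on all 3 arrays against all 3, and was not detected on any SOX2 kd array, so that the level was at least 1.21-fold higher. It was called in 10 of 18 fits.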

How the results depend on the processing

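The number of probes called was small under most settings and moved with the handling of dim probes and of the spread. Against 2 higher and 0 lower in OCT4 kd, there were 11 and 0 without background correction, 1 and 0 with the methods' background subtraction, scaling and floor, 14 and 1 with an offset of 50, 5 and 0 with the 6 arrays normalised alone, 2 and 3 with median scaling, 0 and 0 with 12 arrays in the fit, 0 and 0 for probes detected on all 6 arrays, and 2 and 0 with no filter. The methods' t-test gave 1 and 0 after Benjamini-Hochberg, and 18 and 2 at their p of 0.01 with a 1.5-fold limit. Leaving out each array in turn gave 1 to 17 higher and 0 lower, the 17 without SOX2 kd replicate 3. Added after seeing the data, an intensity trend in the prior variance gave 35 and 1, and array weights gave 205 and 74, with weights of 0.37 for SOX2 kd replicate 3 and 3.70 for OCT4 kd replicate 3. With the replicate block 2 and 0 were called, the same 2 probes, and the block changed no other call. The causes were not tested.

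H2AV was called in 17 of the 18 fits that held it (difference 4.46 to 6.70, adjusted p up to 0.0545). GI_37538433-S was called in 10 of 18 (0.32 to 1.04, adjusted p 0.00488 to 0.204). UTF1 was called in 5 of 19 (0.43 to 0.73, adjusted p 0.00631 to 0.413). The share of probes with intervals within 1.5-fold stayed between 85.4 and 99.2%. Of the values of single named probes under these settings, 861 kept direction and side of the threshold, 42 became called, 9 lost the call, 9 moved in the authors' means by more than the spread between replicates, and 3 changed sign: PPIA to 0.002 and CDKN2D to 0.032 with array weights, and PPIA without SOX2 kd replicate 3 (-0.056 to 0.023 over the left-out arrays). POU5F1 and NANOG were not tested and have no such values. The slide as a block was not run, since the headers name no chip. Probes near background limit the comparison: folds of undetected probes are bounds, and 25.0 to 25.7% of probes were detected on a SOX2 kd array.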
